A study of Mus musculus with 4 samples.

Results

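The outermost cells of the skin are shed when proteases cut the junctions that hold them together, a process called desquamation, and the genes examined here encode 6 of these proteases and 3 inhibitors. The proteases are the kallikrein-related peptidases *Klk5*, *Klk7*, *Klk8*, *Klk10*, *Klk11* and *Klk14*, and the inhibitors are *Spink5*, *Spink12* and *Cst6*. They were chosen by name, as 9 of 32286 features, with earlier results of these data known. Their unique molecular identifiers (UMIs, the count of captured RNA molecules) were followed across regions of the skin. These were the interfollicular epidermis (IFE), the upper hair follicle (HF), the sebaceous gland and the lower HF. Dorsal skin was taken at P38 from mice with the alleles *Krox20-CreERT* and *R26-tdTomato*, in which *CreERT* is expressed from the *Krox20* locus and 4-hydroxytamoxifen at P2 had switched on the *tdTomato* reporter in cells that expressed it. Every sample carried both alleles and was induced, and no other skin was analysed here. RNA of frozen sections was bound to barcoded spots on 4 Visium capture areas (slices, replicates 1 to 4), and by the paper each slice held a section of each of 3 mice. The paper also set aside a further section for its distorted structure, and its spots could not be told apart and were not removed here. Because the mice are shared, the replicates are technical, and p-values measure the spread between slices and not between mice.

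Kallikreins are secreted serine proteases that are made as inactive precursors and activate each other. In the outer epidermis KLK5 and KLK7 cleave corneodesmosin, and KLK5 cleaves desmoglein 1. Both substrates are proteins of the modified desmosomes that join corneocytes. LEKTI, the product of *Spink5*, inhibits several kallikreins, and its loss in people causes Netherton syndrome, in which the barrier is shed too early. *Spink12* encodes a related Kazal-type inhibitor. Cystatin M/E, the product of *Cst6*, acts on cysteine proteases such as cathepsins and legumain and not on kallikreins, and it is needed for normal cornification and hair follicle structure in mice.

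The 6 kallikrein genes lie in a single cluster of 161 kb on chromosome 7 (GRCm38, 43690418 to 43851181, all on the plus strand), in the order *Klk14*, *Klk11*, *Klk10*, *Klk8*, *Klk7* and *Klk5*. The antisense gene *2310002F09Rik* overlaps *Klk14*, *Klk11*, *Klk10* and *Klk8*, and whether counting used strand is not given in the sources used here. It held 14 UMIs in IFE-like spots and 2 in upper follicle-like spots.

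Promoter sequence (250 bases before to 50 after the annotated start) was available from RefSeq (GRCm38.p6) for 6 of the 9 genes. The promoters of *Klk8* and *Klk5*, whose levels were highest in the IFE, are shown with those of *Klk7* and *Klk10*, whose levels were highest in the upper HF, because these 4 genes lie in the same cluster and differ in where they were highest. Capitals mark matches to the motifs searched.
*Klk8*, chr7:43797327-43797626, plus strand: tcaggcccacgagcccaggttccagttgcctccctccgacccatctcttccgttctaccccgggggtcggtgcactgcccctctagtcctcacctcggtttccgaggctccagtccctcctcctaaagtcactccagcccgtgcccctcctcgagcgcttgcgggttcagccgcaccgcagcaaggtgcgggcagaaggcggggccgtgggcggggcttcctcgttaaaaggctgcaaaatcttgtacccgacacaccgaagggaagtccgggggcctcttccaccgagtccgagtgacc
*Klk5*, chr7:43842019-43842318, plus strand: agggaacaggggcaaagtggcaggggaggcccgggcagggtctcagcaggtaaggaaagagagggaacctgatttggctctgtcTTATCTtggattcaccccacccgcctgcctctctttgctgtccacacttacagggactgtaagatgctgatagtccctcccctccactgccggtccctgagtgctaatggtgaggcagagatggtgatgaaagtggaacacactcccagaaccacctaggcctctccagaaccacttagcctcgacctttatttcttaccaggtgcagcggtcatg
*Klk7*, chr7:43811044-43811343, plus strand: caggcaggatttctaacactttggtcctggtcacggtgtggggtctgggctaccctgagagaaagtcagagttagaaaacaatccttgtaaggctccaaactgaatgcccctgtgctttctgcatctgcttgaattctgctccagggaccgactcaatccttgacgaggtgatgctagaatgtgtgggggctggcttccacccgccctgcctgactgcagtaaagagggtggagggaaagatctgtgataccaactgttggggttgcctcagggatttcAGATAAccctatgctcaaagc
*Klk10*, chr7:43780804-43781103, plus strand: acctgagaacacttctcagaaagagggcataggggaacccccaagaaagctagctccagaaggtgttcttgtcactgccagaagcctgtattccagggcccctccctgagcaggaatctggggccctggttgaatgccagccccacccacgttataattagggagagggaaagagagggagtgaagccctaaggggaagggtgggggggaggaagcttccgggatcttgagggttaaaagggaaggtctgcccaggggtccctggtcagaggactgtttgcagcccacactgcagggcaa
The 7 motifs, searched on both strands, were TATAAA for the TATA box, which 13.6% of all 32851 promoters of this length held, TGANTCA for AP-1 (7.81% of promoters) and AGATAA for GATA factors (11.2%). The others were AACCNGTT for grainyhead-like factors (2.09%), GGGNGTGG for KLF factors (17.6%), GNGTGGGCG for EGR factors, the family of KROX20 (2.93%), and TTGCNNAA for CEBP factors (10.8%), and the KLF and EGR letters can overlap. *Klk5* held a GATA match at -166 and *Klk7* a GATA match at +29. These positions count from the RefSeq start. The coordinates of the cluster above are those of GENCODE M21, in which *Klk5* starts at 43841971, before the window printed here. By that start the *Klk5* match lies inside the gene. *Klk8* and *Klk10* held none of the motifs in this window, and *Klk11* held a CEBP match at each of its 2 annotated starts, at -237 and -109.

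Slices held between 19393026 and 26910422 UMIs over 1462 to 1752 spots, and 6411 of 6420 spots had at least 250 genes and were kept. Since RNA of neighboring cells of different types enters the same spot, clusters of spots are called regions, by their leading genes. The 9 genes and 39 other genes of the pathway were left out of the clustering. The IFE-like region (842 spots, led by *Lce1m*, *Lor* and *Krt77*) had the IFE markers at 25025 CPM (the UMI count scaled to the total of the same spots) against 4704 CPM in upper follicle-like spots. The sebaceous gland-like region (268 spots) had sebaceous markers at 7832 CPM and at most 1815 CPM elsewhere. The upper follicle-like region (710 spots) was led by *Atp12a*, *Car6* and *Plet1*, and its label was borne out in part. Of its markers, *Plet1* was at 916 ± 19.4 CPM against 370 ± 18.3 CPM in IFE-like spots, and *Lrig1* at 152 ± 17.4 against 69.9 ± 6.77 CPM (SD, n = 4). *Krt79* was at 805 ± 83.6 CPM there against 1333 ± 102 CPM in IFE-like spots, and the summed upper follicle markers were at 2333 and 2370 CPM. They were highest in sebaceous gland-like spots, at 2990 CPM. *Gata6* was at 8.82 CPM against 13.1 CPM in IFE-like spots, *Lgr6* at 5.66 against 12 CPM and *Defb6* at 119 against 386 CPM. Outer root sheath markers were at 7902 CPM in upper follicle-like spots, above the 6086 CPM of the lower follicle-like region. Upper HF below therefore stands for spots led by *Atp12a*, *Car6* and *Plet1*. The lower follicle-like region joined outer root sheath-like spots (1066) and hair shaft and inner root sheath-like spots (1351). Spots outside the regions included an unnamed cluster of 864, with *Top2a* and *Mki67* among its leading genes, and 375 melanocyte-like spots. *Klk7* was at 94.6 and 78.2 CPM in these clusters and *Cst6* at 427 and 253 CPM, against 513 and 1411 CPM in the lower follicle-like region. Lower HF below therefore does not cover them. Fibroblast markers were at 38833 CPM in IFE-like, 21332 CPM in upper follicle-like, 28257 CPM in sebaceous gland-like and 4268 CPM in lower follicle-like spots, and immune markers at 2456, 777, 1165 and 230 CPM, so that the dermal share of the RNA differed between regions, and its part in the differences of level was not tested. In such sums, fewer cells of a type and less RNA per cell cannot be told apart. Muscle-like spots (784) served as a comparison tissue and are not a floor for every member.

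The members fell into 2 patterns. *Klk5*, *Klk8* and *Klk11* were highest in IFE-like spots in 4 of 4 slices. *Klk7*, *Spink5* and *Spink12* were highest in upper follicle-like spots in 4 of 4 slices, and *Klk10* and *Cst6* in 3 of 4, with the sebaceous gland-like region highest in the other slice. *Klk14* was too rare to be placed. Of the 8 other members, 7 were lowest in the lower follicle-like region in every slice. The exception was *Spink12*, which was lowest in IFE-like spots in every slice.

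**Figure D1:**
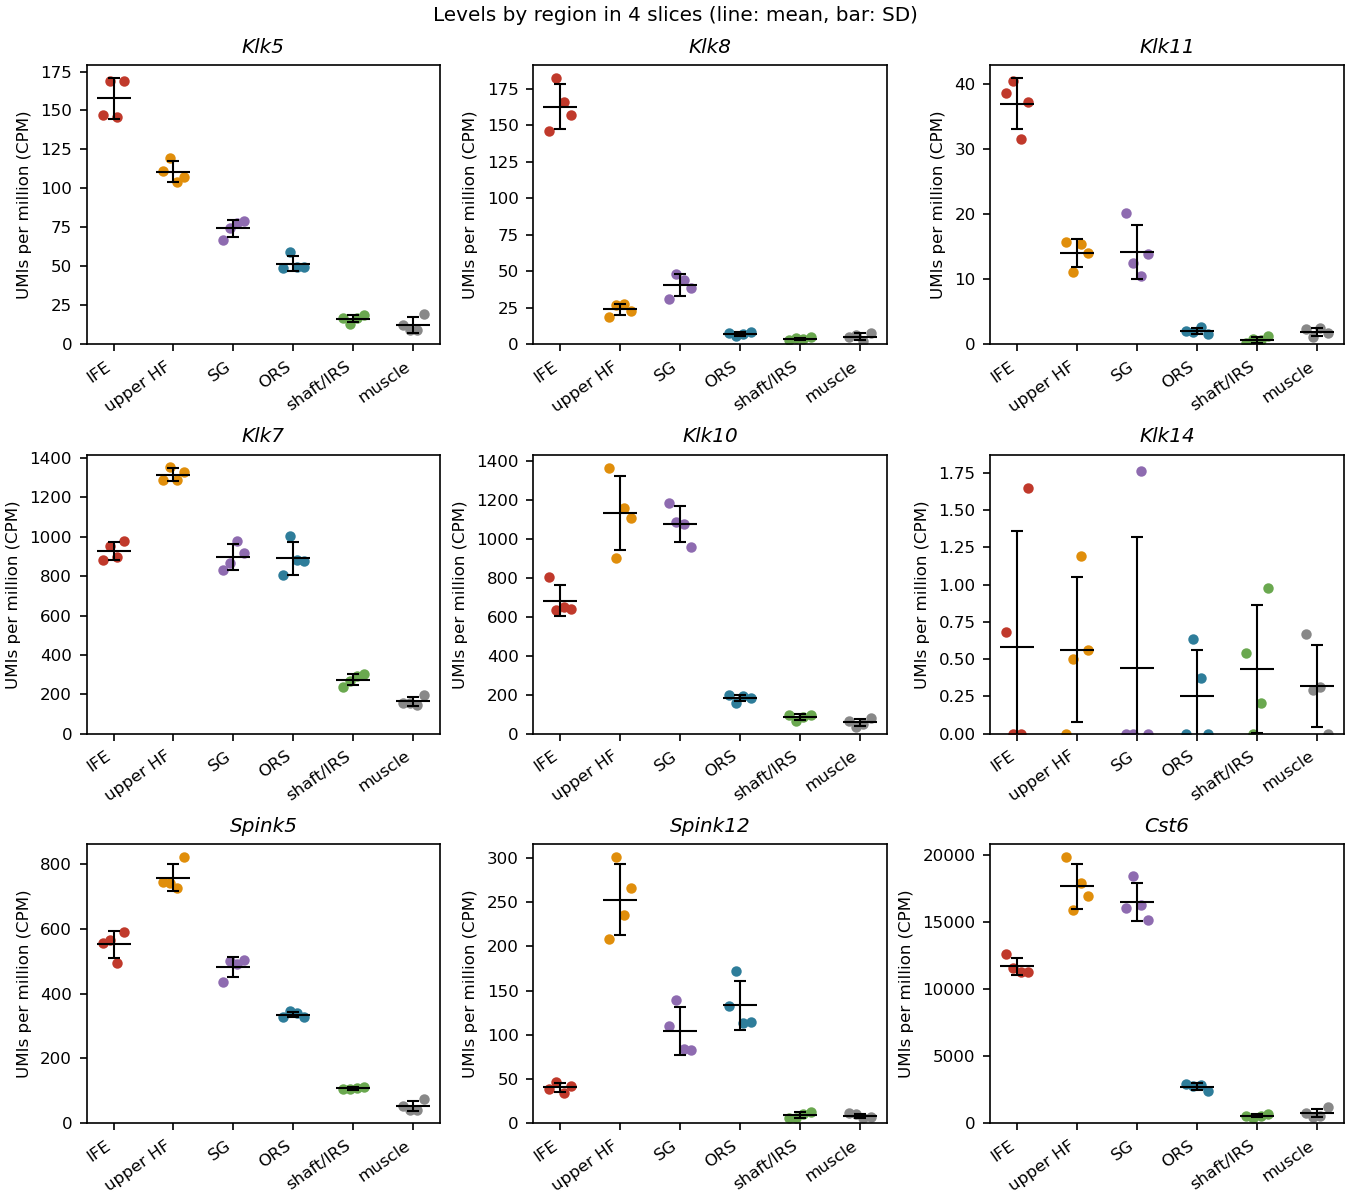
Level of each gene in CPM (UMIs scaled to the total of the spots) in 6 regions, with 1 point per slice, the mean as a line and the SD as a bar; the outer root sheath-like (ORS) and hair shaft and inner root sheath-like (shaft/IRS) spots together form the lower follicle-like region. *Klk8* sits between 146 and 182 CPM in the 4 IFE-like sums and below 50 CPM elsewhere, whereas *Spink12* sits between 208 and 301 CPM in the upper follicle-like sums and below 50 CPM in the IFE.

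*Klk8* (ENSMUSG00000064023), which encodes a trypsin-like kallikrein also known as neuropsin, separated the IFE from the follicle more than any other member. It was at 146, 182, 166 and 157 CPM in the IFE-like spots of replicates 1 to 4 and at 19, 26.7, 27.4 and 23.1 CPM in upper follicle-like spots. The sebaceous gland-like spots held 31.0, 48.5, 44.0 and 38.7 CPM. The 3 ranges did not overlap. The level was 6.84-fold higher in IFE-like than in upper follicle-like spots (log2 fold change 2.77 ± 0.13 SE, edgeR adjusted p = 1.5e-16) and 4.06-fold higher than in sebaceous gland-like spots (adjusted p = 9.7e-12). Lower follicle-like spots held 5.15 ± 0.71 CPM and muscle-like spots 5.22 ± 2.14 CPM (SD, n = 4), so that no *Klk8* above the level of muscle was detectable in the lower HF (adjusted p = 0.918). After each spot was thinned to 5500 UMIs, 53.8% ± 2.5 of IFE-like spots had a *Klk8* UMI, against 12.4% ± 2.4 of upper follicle-like and 2.73% ± 1.80 of muscle-like spots (without thinning 66.5%, 20.9% and 6.88%, at a median of 8876, 9688 and 14155 UMIs per spot).

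*Klk11* (ENSMUSG00000067616), a trypsin-like kallikrein, followed the same order at a lower count of 521 UMIs in all. IFE-like spots held 38.7, 40.5, 31.5 and 37.4 CPM, and upper follicle-like spots held 15.7, 11.1, 15.5 and 14.1 CPM. The groups did not overlap, and the level was 2.67-fold higher in the IFE (adjusted p = 1.6e-08). Upper follicle-like and sebaceous gland-like spots, the latter at 14.3 ± 4.16 CPM, differed by a log2 fold change of -0.01 ± 0.24 SE (adjusted p = 0.993). Lower follicle-like spots were at 1.21 ± 0.17 CPM and muscle-like spots at 1.93 ± 0.63 CPM, with no detectable difference (adjusted p = 0.138). The hair shaft and inner root sheath-like spots alone were 2.51-fold below muscle (log2 fold change -1.33 ± 0.42 SE, adjusted p = 0.0097). This call rests on 13 UMIs there and 23 in muscle-like spots.

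*Klk5* (ENSMUSG00000074155), which can activate itself and then other kallikreins, declined from the IFE over the upper HF and the sebaceous gland to the lower HF. It was at 147, 169, 146 and 169 CPM in IFE-like spots and at 111, 120, 104 and 107 CPM in upper follicle-like spots. It was at 66.7 to 78.9 CPM in sebaceous gland-like spots and at 28.3 to 31.3 CPM in lower follicle-like spots. No 2 of these 4 ranges overlapped. The IFE exceeded the upper HF by 1.43-fold (log2 fold change 0.52 ± 0.11 SE, adjusted p = 0.00039) and the sebaceous gland by 2.15-fold (adjusted p = 1.9e-07).

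*Klk7* (ENSMUSG00000030713) encodes a chymotrypsin-like kallikrein that degrades corneodesmosomes. It was at 1289, 1356, 1288 and 1330 CPM in upper follicle-like spots and at 881, 954, 898 and 981 CPM in IFE-like spots. Every upper follicle-like sum exceeded every IFE-like sum, by 1.41-fold in the fit (log2 fold change -0.49 ± 0.09 SE for IFE over upper HF, adjusted p = 0.00011). Sebaceous gland-like spots, at 830 to 977 CPM, overlapped with the IFE, and the log2 fold change of 0.07 ± 0.09 SE did not pass (adjusted p = 0.702). *Klk7* was also the kallikrein that reached farthest down the follicle. It was at 891 ± 83.0 CPM in outer root sheath-like spots, a range of 804 to 1004 CPM that overlapped with the IFE, against 275 ± 29.8 CPM in hair shaft and inner root sheath-like spots (2.78-fold, adjusted p = 3.6e-14).

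*Klk10* (ENSMUSG00000030693), a kallikrein that many epithelia secrete, was at 1363, 900, 1156 and 1104 CPM in upper follicle-like spots and at 1182, 1085, 1074 and 956 CPM in sebaceous gland-like spots. These ranges overlapped (log2 fold change 0.09 ± 0.15 SE, adjusted p = 0.805), but with regions set without clusters the upper HF was higher (0.98, adjusted p = 0.00023). IFE-like spots held 801, 633, 651 and 639 CPM, below every slice of both other regions. The upper HF exceeded the IFE by 1.65-fold (adjusted p = 0.00044) and the sebaceous gland exceeded it by 1.55-fold (adjusted p = 0.0037). The first of these log2 fold changes of the IFE, -0.72, was -1.63 with 16 clusters and -1.37 with regions set without clusters. The second, -0.63, was -1.25 with 16 clusters. It did not pass without replicate 3 (-0.61) or with regions set without clusters (-0.39, adjusted p = 0.14).

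*Klk14* (ENSMUSG00000044737), a trypsin-like kallikrein that can activate KLK5, was close to absent from these libraries, with 37 UMIs in 36 spots. The 4 regions held 5, 4, 1 and 11 UMIs from the IFE to the lower HF, and muscle-like spots held 4. It was left out by the filter on low counts, so that 8 of 9 members were tested, and no order of regions can be read from it.

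*Spink5* (ENSMUSG00000055561; GRCm38 chromosome 18, 43963235 to 44022501, plus strand) had the same order as *Klk7*. It was at 745, 741, 728 and 823 CPM in upper follicle-like spots, and at 557, 565, 495 and 592 CPM in IFE-like spots. The groups did not overlap, and the upper HF was 1.36-fold higher (log2 fold change -0.44 ± 0.11 SE for IFE over upper HF, adjusted p = 0.0034). The call was lost with 16 clusters (log2 fold change -0.15) and with regions set without clusters (-0.23). Sebaceous gland-like spots held 436 to 504 CPM, not shown to differ from the IFE (log2 fold change 0.22 ± 0.12 SE, adjusted p = 0.263), and lower follicle-like spots held 191 to 204 CPM. The IFE exceeded the sebaceous gland with 16 clusters (0.60) and with regions set without clusters (0.64). It lay below the sebaceous gland with 9 clusters (-0.38), where no upper follicle-like cluster was named and the sebaceous gland-like cluster was larger.

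*Spink12* (ENSMUSG00000061144; chromosome 18, 44104407 to 44108543, plus strand) ran opposite to *Klk8*. It was at 208, 301, 236 and 267 CPM in upper follicle-like spots and at 39.0, 46.3, 34.2 and 42.3 CPM in IFE-like spots. No upper follicle-like value came near an IFE-like one, and the difference was 6.18-fold (log2 fold change -2.63 ± 0.16 SE, adjusted p = 5.1e-14). Sebaceous gland-like spots lay between, at 83.0 to 140 CPM. In thinned spots, 63.5% ± 7.7 of the upper follicle-like spots and 18.1% ± 2.3 of the IFE-like spots had a *Spink12* UMI, against 4.45% ± 2.24 in muscle (without thinning 76.5%, 28.4% and 10.5%). In the lower HF it was concentrated in the outer root sheath-like spots, at 133, 172, 113 and 115 CPM, with 6.32, 6.08, 10.5 and 13.2 CPM in hair shaft and inner root sheath-like spots (13.0-fold, adjusted p = 2.1e-16). The latter were not shown to differ from muscle (8.44 ± 2.47 CPM, adjusted p = 0.548).

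*Cst6* (ENSMUSG00000024846; chromosome 19, 5344705 to 5349574, minus strand) accounted for 0.371% of all UMIs and was found in 98.5% of spots, muscle-like spots included, so shares of spots carry no information for it. Upper follicle-like spots held 19818, 15925, 17899 and 16932 CPM, sebaceous gland-like spots 16021, 18434, 16264 and 15119 CPM, and IFE-like spots 12598, 11601, 11287 and 11305 CPM. The upper follicle-like and sebaceous gland-like values overlapped (adjusted p = 0.766), although with regions set without clusters the upper HF was higher (log2 fold change 0.92, adjusted p = 0.0016). Both regions lay above the IFE in every slice. The upper HF exceeded the IFE by 1.5-fold (log2 fold change -0.58 ± 0.17 SE, adjusted p = 0.0088), a call lost without replicate 3 (-0.56). The difference was larger with 16 clusters (-1.35) and with regions set without clusters (-1.24). The sebaceous gland exceeded the IFE by 1.38-fold, which missed the threshold (adjusted p = 0.057). It passed with the slice as a block (log2 fold change -0.48, adjusted p = 0.00060), and over all alternatives the adjusted p ranged from 8.2e-05 to 0.295. Lower follicle-like spots were at 1411 ± 148 CPM and muscle-like spots at 763 ± 330 CPM.

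Counted together, 8 of 8 tested members differed between IFE-like and upper follicle-like spots, where 24.1% of 11922 genes did (edgeR's quasi-likelihood test, Benjamini-Hochberg adjusted p under 0.05). Since the members were chosen with earlier results of these data known, the shares of all genes stand beside such counts as a description. A set of 3 kallikreins was higher in the IFE, where 12.9% of all genes were higher, and 2 kallikreins and all 3 inhibitors were higher in the upper HF, where 11.1% were. Between IFE-like and sebaceous gland-like spots 5 of 8 were called, against 13.5% of all genes. *Klk5*, *Klk8* and *Klk11* were higher in the IFE (6.68% of all genes) and *Klk10* and *Spink12* in the sebaceous gland (6.82%). Between upper follicle-like and sebaceous gland-like spots 5 of 8 were called, against 11.6% of all genes. *Klk5*, *Klk7*, *Spink5* and *Spink12* were higher in the upper HF (5.44% of all genes) and *Klk8* in the sebaceous gland (6.15%). Without replicate 2 this count fell to 3, as *Klk5* (log2 fold change 0.54) and *Klk8* (-0.72) were lost, and with thinned spots *Klk8* was lost as well (-0.30). With regions set without clusters *Klk5* (0.60) and *Klk8* (-0.29) were lost, while *Klk10* and *Cst6* passed as higher in the upper HF. The shares of all genes called without replicate 2, with thinned spots or without clusters are not given here.

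All 8 members were higher in upper follicle-like than in lower follicle-like spots, as were 23.5% of all genes, and all 8 were higher in sebaceous gland-like than in lower follicle-like spots, as were 20.7% of all genes. Against outer root sheath-like spots alone, the sebaceous gland was not shown to differ in *Klk7* (adjusted p = 0.99) or *Spink12* (log2 fold change -0.36). The IFE differed from the lower HF in 8 of 8, where 50.5% of all genes were called. Of these, 7 were higher in the IFE (26.2% of all genes). *Spink12* alone was higher in the lower HF, as were 24.2% of all genes (log2 fold change -0.62 ± 0.16 SE for IFE over lower HF, adjusted p = 0.0021). This direction held against the outer root sheath-like spots alone (-1.73) and turned against the hair shaft and inner root sheath-like spots alone (1.99). The call was also lost with spots of at least 2000 genes (-0.40), with strips as units (-0.62) and with regions set without clusters, where the sign turned (0.15). *Klk7* in the IFE was not shown to differ from outer root sheath-like spots alone (0.06). The median log2 fold change of all genes was between -0.01 and 0.02 in these 6 comparisons.

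Against muscle-like spots, 30 of 32 comparisons of the 8 members in 4 regions were called, all of them higher than in muscle. Of all genes, 29.3% were higher in IFE-like, 27.9% in upper follicle-like, 24.1% in sebaceous gland-like and 27.9% in lower follicle-like spots than in muscle. The exceptions were *Klk8* and *Klk11* in the lower HF, and the call for *Cst6* there was lost with regions set without clusters (log2 fold change 0.20). Within the lower HF, all 8 members were higher in outer root sheath-like than in hair shaft and inner root sheath-like spots, as were 18.1% of 12428 genes. The smallest difference was that of *Klk8* (1.62-fold, adjusted p = 0.018) and the largest that of *Spink12*. From outer root sheath-like to upper follicle-like spots all 8 were higher again, as were 12.8% of genes, from 1.46-fold for *Klk7* to 6.69-fold for *Klk11*. *Klk8* and *Klk11* lay near or below the level of muscle in both parts of the lower HF. *Klk8* was at 7.17 CPM in outer root sheath-like and 3.82 CPM in hair shaft and inner root sheath-like spots, against 5.22 CPM in muscle. *Klk11* was at 2.03 and 0.690 CPM, against 1.93 CPM in muscle. Of the 335 outer root sheath-like spots of replicate 1, 272 fell in a separate cluster of 278 spots. Without that cluster the 8 members kept their direction against the lower follicle-like region in the 3 other regions, and the call for *Spink12* in the IFE was lost (log2 fold change -0.36).

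**Figure D2:**
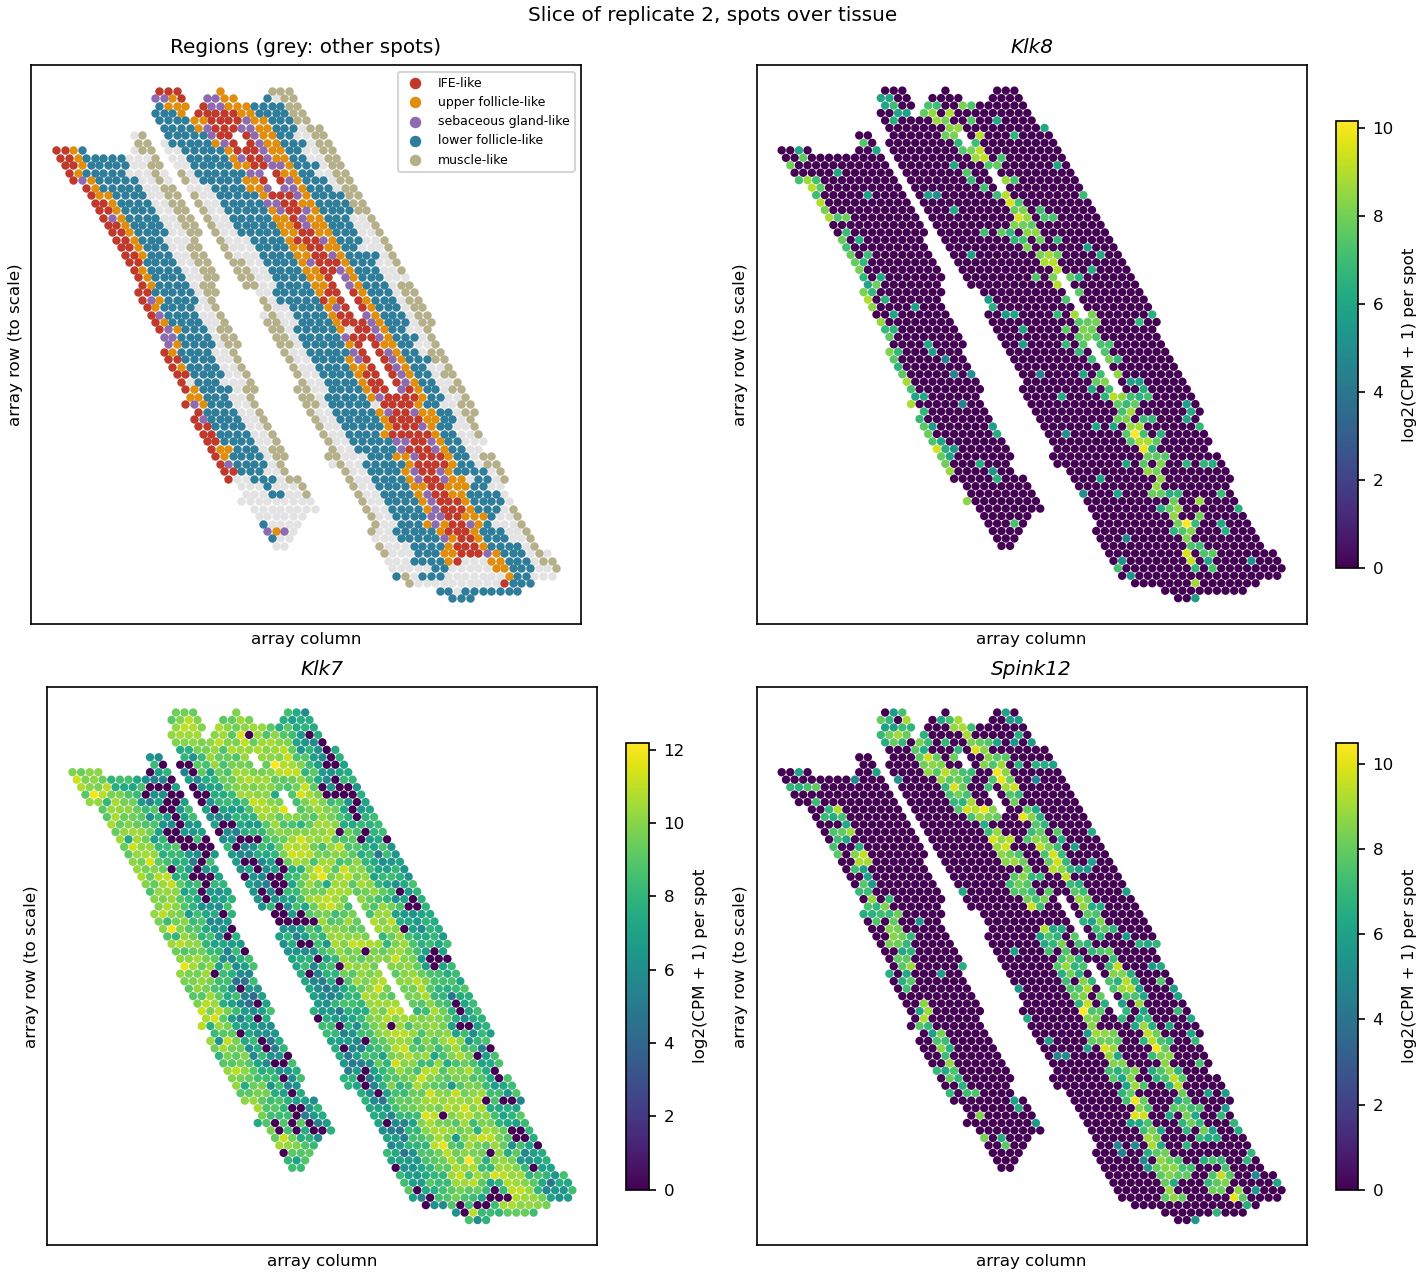
Spots over tissue in the slice of replicate 2, colored by region (upper left) and by log2(CPM + 1) per spot for *Klk8*, *Klk7* and *Spink12*; sections lie side by side, with the epidermis of 2 of them facing each other. *Klk8* follows the line of IFE-like spots, *Spink12* forms bands beside that line, and *Klk7* covers both and the tissue below them.

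Levels were also followed by distance from the epidermis, counted as steps between neighboring spots to the nearest IFE-like spot. Step 0 is the IFE-like region itself, and 447 of the 823 spots at 1 step were upper follicle-like. The profile thus reuses the same regions and is no separate support for their order. *Klk8* fell from 163 ± 15.4 CPM in IFE-like spots to 31.8 ± 6.86 CPM at 1 step, 12.7 ± 2.14 CPM at 2 steps and 4.96 ± 0.83 CPM at 3 steps, the level of muscle. *Klk5* and *Klk11* were also highest at step 0. *Klk7*, *Klk10*, *Spink5* and *Cst6* peaked at 1 step, *Klk10* at 1146 ± 128 CPM against 681 ± 80.2 CPM in IFE-like spots. *Spink12* peaked deepest, at 206 ± 38 CPM at 2 steps. At 3 steps *Klk7* was still at 624 ± 91.8 CPM and *Cst6* had fallen to 1430 ± 353 CPM from 17810 ± 676 CPM at 1 step. Among upper follicle-like spots alone, those touching the IFE held 1387 ± 202 CPM of *Klk10* and 21844 ± 1502 CPM of *Cst6*, and those at 2 steps held 704 ± 84.3 and 10989 ± 1331 CPM. *Spink12* ran the other way within the same region, at 226 ± 30.9 CPM beside the IFE and 291 ± 64.2 CPM at 2 steps, with an overlap of the ranges. *Klk5* did not decline there (107 ± 8.22 and 114 ± 12.5 CPM). These profiles are descriptions and were not tested.

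**Figure D3:**
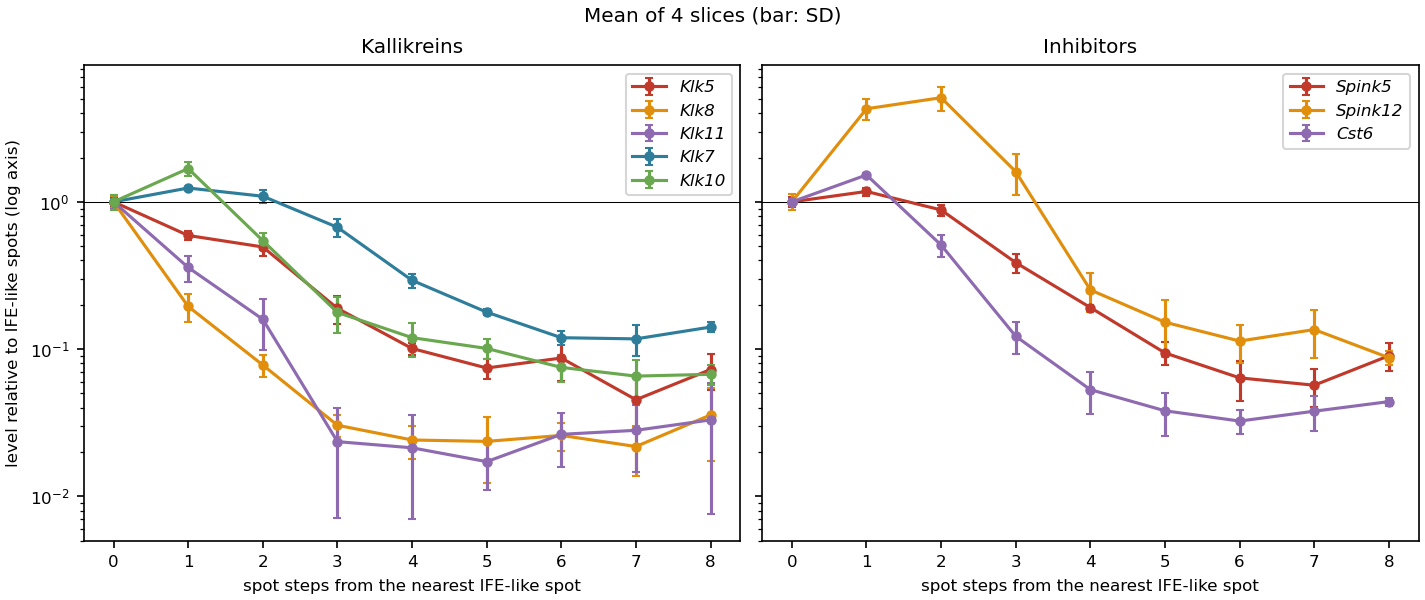
Level relative to IFE-like spots (log axis) against the number of spot steps from the nearest IFE-like spot, as mean and SD of 4 slices, for kallikreins (left) and inhibitors (right). *Klk8* drops from 163 CPM to 31.8 CPM within 1 step, *Klk7* stays above its IFE level at 1 and 2 steps, and *Spink12* is highest at 2 steps.

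For the makeup of the kallikrein UMIs, each gene was divided by the sum of the 6, which takes out RNA of cells that lack kallikreins. It does not take out kallikrein UMIs of neighboring cells or of free RNA. Muscle-like spots had a makeup of their own, with *Klk7* at 68.4% ± 4.9 and *Klk10* at 23.5% ± 4.5. The part of such UMIs in the shares of the other regions was not tested. *Klk8* made up 8.29% ± 0.88 of kallikrein UMIs in IFE-like spots, 0.934% ± 0.192 in upper follicle-like spots and 1.93% ± 0.36 in sebaceous gland-like spots. *Klk5* made up 8.02% ± 0.61, 4.28% ± 0.46 and 3.55% ± 0.33. The share of *Klk7* was 47.2% ± 2.4 in the IFE and 50.9% ± 4.2 in the upper HF, which overlapped, and 76.2% ± 2.6 in the lower HF. The share of *Klk10* was 51.1% ± 3.5 in the sebaceous gland and 43.3% ± 4.8 in the upper HF, with overlapping ranges, and 34.6% ± 3.6 in the IFE. Slice by slice, *Klk10* per *Klk7* UMI was 1.42, 1.25, 1.10 and 1.04 in the sebaceous gland against 1.06, 0.664, 0.897 and 0.830 in the upper HF, higher in the sebaceous gland in each of the 4. Counts at the 3′ end depend on the transcript captured, so these shares can be compared between regions and not read as amounts of protease.

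Protease and inhibitor were then set against each other, as UMIs of a kallikrein per UMI of an inhibitor of the same spots. *Klk5* per *Spink5* was 0.264, 0.299, 0.294 and 0.286 in IFE-like spots. It was 0.131 to 0.162 in upper follicle-like, 0.150 to 0.158 in sebaceous gland-like and 0.148 to 0.156 in lower follicle-like spots. The IFE stood above the other 3 regions in every slice, and these 3 overlapped. Muscle-like spots, where both genes were low, were at 0.233 ± 0.023. *Klk7* per *Spink5* was nearly level from the IFE (1.68 ± 0.10) over the upper HF (1.74 ± 0.09) to the sebaceous gland (1.86 ± 0.11), with overlapping ranges, and was 2.62 ± 0.16 in the lower HF and 3.23 ± 0.54 in muscle-like spots. *Klk8* per *Spink5* was 0.296 ± 0.038 in the IFE, 0.0318 ± 0.0059 in the upper HF and 0.0837 ± 0.0117 in the sebaceous gland.

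All 6 kallikreins per UMI of *Spink5* and *Spink12* came to 3.33 ± 0.19 in IFE-like, 2.58 ± 0.29 in upper follicle-like, 3.59 ± 0.30 in sebaceous gland-like and 2.66 ± 0.14 in lower follicle-like spots. The lowest IFE-like value (3.13) lay above the highest upper follicle-like value (2.94). This order did not hold for every way of drawing the regions, since it was 2.95 in the IFE and 3.32 in the upper HF with regions set without clusters. With *Cst6* added to the inhibitors, the ratio was 0.160 ± 0.006, 0.139 ± 0.004, 0.124 ± 0.010 and 0.407 ± 0.039 from the IFE to the lower HF, and most of its movement follows the level of *Cst6*. *Spink12* per *Spink5* was 0.0731 ± 0.0059 in the IFE, 0.333 ± 0.053 in the upper HF and 0.217 ± 0.058 in the sebaceous gland.

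**Figure D4:**
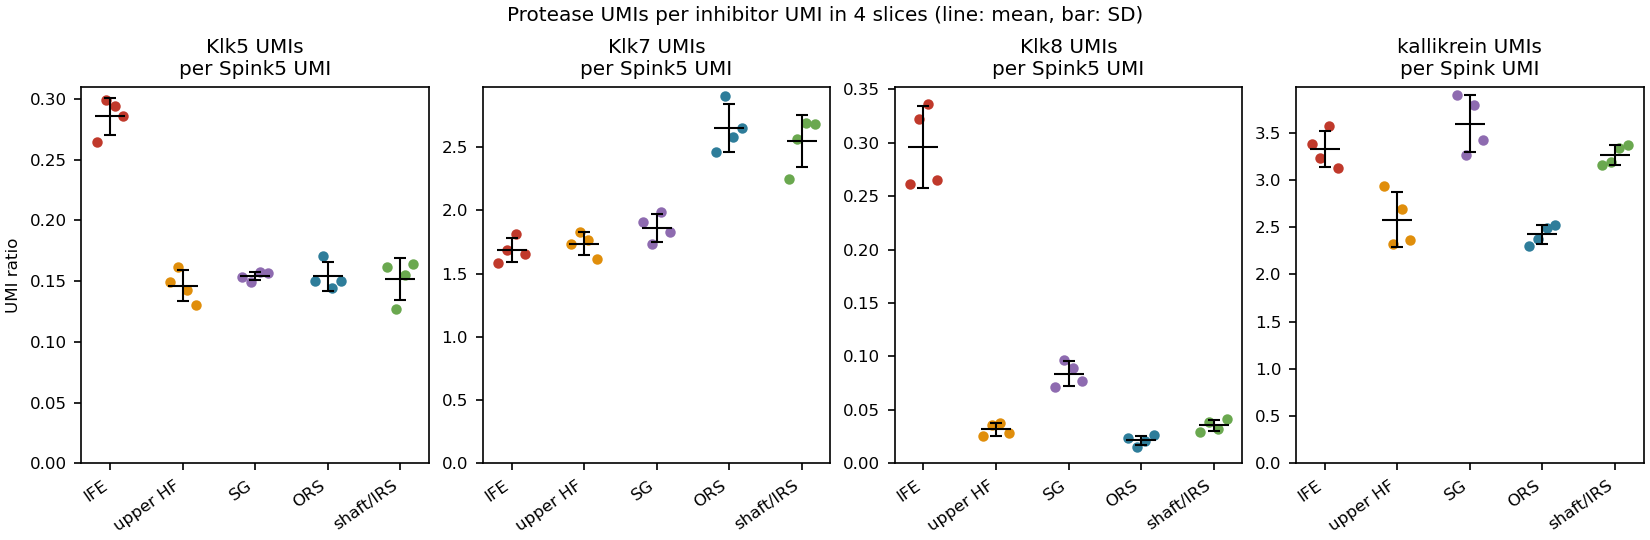
UMIs of *Klk5*, *Klk7* and *Klk8* per *Spink5* UMI, and of all 6 kallikreins per *Spink5* and *Spink12* UMI, in 5 regions, with 1 point per slice, the mean as a line and the SD as a bar. *Klk5* per *Spink5* is 0.286 in the IFE and between 0.146 and 0.154 in the other 4 regions.

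The order of genes along chromosome 7 did not follow the order of levels. Going from *Klk13* toward *Klk5*, the log2 fold change of IFE-like over upper follicle-like spots was 0.52 ± 0.23 SE for *Klk13* (adjusted p = 0.098), 1.42 for *Klk11*, -0.72 for *Klk10*, 3.88 ± 0.25 SE for *Klk9* (adjusted p = 1.6e-13), 2.77 for *Klk8*, -0.49 for *Klk7*, -1.33 ± 0.12 SE for *Klk6* (adjusted p = 1.3e-10) and 0.52 for *Klk5*. Direct neighbors thus differed in sign, as *Klk10* did from *Klk11* and from *Klk9*. *Klk9* and *Klk6* are other members of the family, with *Klk9* at 35.8 CPM and *Klk6* at 97.2 CPM in the IFE and at 2.34 and 248 CPM in the upper HF. *Klk1*, *Klk4*, *Klk12* and *Klk15* were too rare to be tested.

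**Figure D5:**
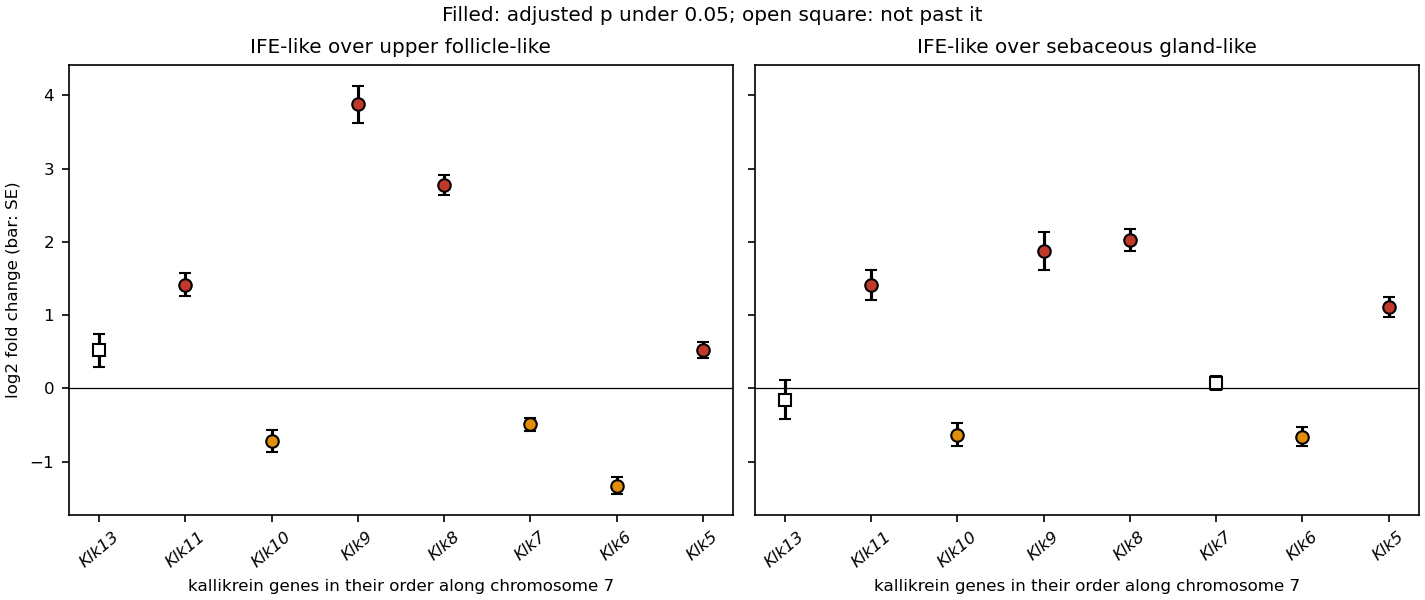
Log2 fold change (bar: SE) of the tested kallikrein genes in their order along chromosome 7, for IFE-like over upper follicle-like spots (left) and over sebaceous gland-like spots (right). Filled circles pass an adjusted p of 0.05 and open squares do not; *Klk9*, *Klk8* and *Klk11* lie above 1 in both panels, and *Klk10* and *Klk6* lie below 0.

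Of 39 other genes of the pathway, 30 were tested. Between IFE-like and upper follicle-like spots 13 were higher in the IFE, as were 12.9% of all genes, and 7 were higher in the upper HF, as were 11.1%. The other 10 did not pass, and the median log2 fold change was 0.13 against 0.01 over all genes. Of 9 other inhibitors, 6 were higher in the IFE. *Serpina12*, which encodes vaspin, an inhibitor of KLK7, was 14.6-fold higher (245 against 17.0 CPM, adjusted p = 2.0e-19), and *Serpinb7*, an epidermal serpin, was 13.7-fold higher (adjusted p = 7.2e-18). *Csta1*, a cystatin that acts on cysteine proteases, was 3.16-fold higher. *Spint1*, *Spint2* and *Spink6* were higher in the upper HF, by 1.23-, 1.48- and 6.88-fold. *Spint1* and *Spint2* encode inhibitors of matriptase and prostasin. All 3 inhibitors among the 9 members thus had levels higher in the upper HF, whereas the other inhibitors were called in both directions.

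Among 12 other proteases, 3 were higher in the IFE (12.9% of all genes), 3 in the upper HF (11.1%) and 6 were not called. *Casp14*, which takes part in the processing of filaggrin, was 6.47-fold and *Tmprss4* 6.05-fold higher in the IFE. *Tmprss13* and *Prss8*, which encodes prostasin, were higher in the upper HF by 1.78- and 1.35-fold, and *Ctsd*, the lysosomal cathepsin D, by 1.63-fold. *St14*, which encodes the kallikrein activator matriptase, had a log2 fold change of -0.16 ± 0.09 SE and did not pass (adjusted p = 0.218). Of 6 tested genes of substrates and a receptor, *Flg*, *Dsg1a* and *Cdsn* were higher in the IFE, by 13.8-, 2.12- and 1.64-fold, and none was higher in the upper HF. *Cdsn* and *Dsg1a*, the genes of corneodesmosin and of a desmoglein 1, are substrates of the kallikreins. *Cdsn* was at 833 CPM in the IFE and 1085 CPM in the lower HF. *F2rl1*, the gene of the receptor PAR2 that kallikreins can activate, had a log2 fold change of -0.18 ± 0.13 SE (adjusted p = 0.366).

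Correlations between members were also taken over spots of the same region. In thinned IFE-like spots (706), log levels of *Klk10* and *Cst6* correlated at a mean r of 0.74 over the slices (0.71 to 0.76), and in upper follicle-like spots (609) at 0.79 (0.74 to 0.84). *Klk5* and *Klk8* correlated at 0.25 (0.15 to 0.33) in the IFE. *Klk8* ran against *Cst6* (-0.23, from -0.33 to -0.07) and against *Klk10* (-0.22, from -0.28 to -0.15) in the same spots. *Klk7* correlated with *Cst6* at 0.35 in the IFE and 0.44 in the upper HF, and with *Klk10* at 0.29 and 0.41. With *Spink5* it correlated at 0.26 in the IFE and 0.28 in the upper HF. In the upper HF *Spink5* correlated with *Cst6* at 0.45 and with *Klk10* at 0.36, but in the IFE at -0.01 with each. These are descriptions over spots of the same sections, which share position and neighbors, and no weight is put on the weak values among them, since these counts are sparse.

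The genes most like each member were ranked over 9 clusters, by the mean of the correlation within each slice. Among those below, *Sbsn*, *Flg2*, *Plet1* and *Atp6v1c2* are also markers that named the clusters. *Klk8* was most like *Calm4* (r = 0.99), *Clca3a2* and *Flg2*, and *Klk11* was most like *Chit1*, *Skint2* and *Btc* (r from 0.98). *Klk5* was most like *Sbsn* (0.98), *Ahnak2* and *Anxa8*. *Klk7* and *Spink5* shared *Sh3pxd2a* and *Atp9a* among their 3 most similar genes, and correlated with each other at 0.99. *Eppk1* was the other for *Klk7* and *Col17a1* for *Spink5*. *Klk10* was most like *Psapl1*, *Atp6v1c2* and *Bicdl1*, *Cst6* was most like *Plet1*, *Atp12a* and *Apoe*, and *Spink12* was most like *Slc15a1*, *Slc1a1* and *Wfdc18*. The least alike of the members were *Klk8* and *Spink12*, at 0.54. *Klk5* was at 0.94 with *Cst6* and *Klk10*, 0.91 with *Spink5*, *Klk7* and *Klk11*, 0.88 with *Klk8* and lowest, at 0.82, with *Spink12*. Apart from *Spink12*, its likeness to other members thus did not follow the division by highest region.

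Each slice was also split into 3 strips along the direction in which *Xist* and Y-linked UMIs changed, since sections of the 3 mice lie side by side and the spots are not labelled by mouse. Of *Xist* and Y-linked UMIs together, *Xist* made up 5.86% to 14.1% in strips 1 and 2 and 79.5% to 87.2% in strip 3. The section that the paper set aside was not removed, so the strips need not follow the sections. In the 3 strips the log2 ratio of IFE-like to upper follicle-like CPM was 2.59, 2.74 and 2.85 for *Klk8* and -2.35, -2.52 and -2.62 for *Spink12*. It was 0.30, 0.57 and 0.58 for *Klk5*, and -0.53, -0.47 and -0.50 for *Klk7*. All 8 members kept their sign in the 3 strips, with *Klk11* between 1.16 and 1.60, *Klk10* between -0.80 and -0.52, *Spink5* between -0.61 and -0.23 and *Cst6* between -0.80 and -0.37. A strip is not a mouse, and with strips as units the call for *Cst6* between the IFE and the upper HF was lost (log2 fold change -0.59), as were those for *Spink12* between the lower HF and both the IFE (-0.62) and the sebaceous gland (0.70).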

How the data were processed

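The authors deposited UMI counts per gene and spot of 4 Visium slices, without normalization, made with Space Ranger 2.0.1 (per the file headers) on mm10 (per the labels). Coordinates are those of GENCODE M21 on GRCm38, in which 32158 of 32286 features have an identifier. Slices held 19393026 to 26910422 UMIs, and their number limits the precision. Spots with at least 250 genes were clustered in Seurat 5.3.0 (R 4.3.3; 2000 variable genes, 30 components, 20 neighbours, resolution 0.65, 12 clusters) without the 9 members and 39 pathway genes. Clusters were named after the marker list that was raised most on average, given at least 3 markers at a log2 fold of 0.75, a rule set after the clusters were seen. Where the rule gave several clusters the muscle list, only the one with the highest mean was kept as muscle-like, and a cluster of 132 spots with 7 of 8 muscle markers raised, led by keratin-associated and muscle genes, stayed unnamed. A cluster of 864 spots stayed unnamed too, since no list with at least 3 such markers was raised on average. Doublets were not called in spots. All spots over tissue were used, since which spots belong to the section that the study set aside is not given in the sources used here. Libraries shared 963 to 1403 spot barcodes, which name array positions and not cells.

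For each region of each slice, counts were added up and fitted with edgeR 4.0.16 (TMM, filterByExpr, quasi-likelihood, all regions in a single fit), with Benjamini-Hochberg adjustment over all genes tested. The fit was tested on simulated data for IFE-like against upper follicle-like spots. The regions were drawn from other genes of the same spots. CPM was computed over all UMIs of the same spots, and the logarithm for likeness between genes used a pseudocount of 5 CPM. Same-numbered sums come from the same slice and so from the same sections, and their deviations correlated at a mean of 0.22, 0.13, 0.08 and 0.13, so the slice number was also used as a block. The members and lists were chosen with earlier results of these data known. Named genes are the members, the pathway lists and, for each member with at least 100 UMIs, the 3 genes most like it. Alternatives covered 16 and 9 clusters, clustering with all genes, regions set without clusters, spots with at least 2000 genes, thinning to 5500 UMIs, each slice left out, strips, either part of the lower follicle alone, DESeq2 1.42.0, no filter, the block and library size alone. Leaving out the cluster of replicate 1 was added after the data were seen.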

Additional observations from a re-analysis of the deposited data

Results flagged for a closer look

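Among 45 groups of 4 slices (9 genes in 4 regions and muscle), 3 held a slice that stood apart from the others by Dixon's criterion, and chance gives about 1 in 20. *Klk10* in IFE-like spots was at 801 CPM in replicate 1, against at most 651 CPM in the others. *Klk7* in muscle-like spots was at 199 CPM in replicate 4, against at most 155 CPM in the others. *Klk14* in sebaceous gland-like spots was at 1.76 CPM in replicate 3, which is a single UMI, and at 0 in the others.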

How the results depend on the processing

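Depth limits *Klk14* and *Klk11*, and 4 slices of the same 3 mice limit the rest. Of 1408 log2 fold changes under alternatives, 1369 kept direction and side of the threshold, 19 no longer passed, 14 newly passed and 6 reversed; the cause was not tested.

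With 9 clusters there was no upper follicle-like cluster and hence no value for its comparisons. The sebaceous gland-like cluster then held 645 spots instead of 268, with *Atp12a*, a leading gene of the upper follicle-like region, among its own leading genes. Calls between IFE-like and sebaceous gland-like spots rose from 5 to 8, and *Klk7* (-0.46) and *Spink5* (-0.38) reversed. The sebaceous gland-like spots of this setting are thus a different set, and the share of all genes called with it is not given here. *Spink12* in the IFE against the lower HF reversed with regions set without clusters (0.15) and against hair shaft and inner root sheath-like spots alone (1.99), and *Spink12* in the sebaceous gland reversed against outer root sheath-like spots alone (-0.36). *Cst6* in the lower HF against muscle reversed with hair shaft and inner root sheath-like spots alone (-0.29). Leaving out a slice gave 3 to 5 calls between upper follicle-like and sebaceous gland-like spots, 4 to 6 between IFE-like and sebaceous gland-like spots and 7 to 8 between IFE-like and upper follicle-like spots. The shares of all genes called with a slice left out are not given here. These counts therefore cannot separate a change in the members from a change in calls over all genes.

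Kallikrein UMIs per UMI of all 3 inhibitors moved in the IFE to 0.224 with 16 clusters and 0.189 without clusters, in the upper HF to 0.129 without clusters, and in the lower HF to 0.363 with 16 clusters, 0.302 with 9 clusters, 0.356 for outer root sheath-like and 0.566 for hair shaft and inner root sheath-like spots. Per *Spink5* and *Spink12* UMI they moved in the IFE to 2.60 with 16 clusters and 2.95 without clusters, in the upper HF to 3.32 without clusters, and in the lower HF to 2.52 with 9 clusters, 2.88 without clusters, 2.42 for outer root sheath-like and 3.27 for hair shaft and inner root sheath-like spots.

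With the replicate block, 6 members differed between IFE-like and sebaceous gland-like spots, with *Cst6* newly passing (-0.48), and the block changed no other call of a member. The share of all genes called with the block is not given here.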
